A study of Mus musculus with 6 samples.

Results

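The nuclear factor I (NFI) family of transcription factors consists of 4 genes in the mouse, Nfia, Nfib, Nfic and Nfix. They were taken by symbol from the deposited expression table of developing molars, where all 4 were present among 25899 gene symbols. Each library was made from the apical portion of the dental mesenchyme of mandibular first molars, taken at day 7.5 after birth, the time of early root growth. The 3 mutant libraries carried the Gli1-CreER driver with loxP-flanked Bmpr1a alleles (Gli1-CreER;Bmpr1afl/fl), and the 3 control libraries came from littermates with the floxed alleles alone (Bmpr1afl/fl). CreER is a recombinase that needs tamoxifen to act, here made in Gli1-expressing cells, and the product of Bmpr1a is a receptor that binds bone morphogenetic proteins (BMPs). The tamoxifen schedule, and whether controls received it, is not given in the sources used here. Litter 1 supplied controls 1 and 2 and mutants 1 and 2, litter 2 supplied control 3 and mutant 3, and the background was mixed C57Bl6 and 129S6/SvEvTac. The labels do not say whether a library is 1 animal or a pool, so p-values measure the spread between these libraries.

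NFI proteins bind DNA as dimers through a conserved amino-terminal domain, each subunit recognising 1 arm of a palindrome, and both activate and repress transcription. Mice without Nfic form molar crowns but lack normal roots, and Nfic has been tied in root mesenchyme to hedgehog signalling through Hhip and to the odontoblast factors Klf4 and Sp7. The relatives are best known elsewhere: Nfia in the formation of glia, Nfib in the maturation of lung and brain, and Nfix in fetal muscle and brain. Because NFI genes are active in many cell types, a bulk level cannot tell fewer cells of a type from less RNA per cell.

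The libraries held between 15916045 and 20609420 reads on genes, and levels are given in RPM, reads per 1000000 mapped reads, a denominator inferred from the values. Markers of dental mesenchyme were all detected, 6 of 6, with a summed level of 7135 to 9066 RPM in controls and 5621 to 7970 RPM in mutants. Dental epithelium was also present in every library. Its 5 markers used, all detected (Krt14, Krt5, Krt17, Epcam and Cdh1), summed to between 244 and 3181 RPM in controls and between 1226 and 4697 RPM in mutants. Enamel matrix and protease genes were detected in 7 of 7 cases and summed to 2143 to 36754 RPM in controls and 4454 to 47439.7 RPM in mutants. Of 5 muscle markers, Ckm and Myog stayed under 3 reads in every library, and the list summed to 0.315 to 1.42 RPM.

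On the mouse build GRCm38 (mm10), in the GENCODE annotation, Nfic (ENSMUSG00000055053.18) lies on the minus strand at chr10:81396186-81455635. Nfix (ENSMUSG00000001911.16) is on the minus strand at chr8:84699876-84800344. Nfib (ENSMUSG00000008575.17, chr4:82290173-82705750, minus strand) and Nfia (ENSMUSG00000028565.18, chr4:97772734-98118874, plus strand) share a chromosome. Their merged exons span 6630 bases in Nfic, 7351 in Nfix, 14957 in Nfib and 10891 in Nfia. Genes on the opposite strand share 137 exon bases with Nfix (G430095P16Rik), 4 with Nfix (Lyl1), 72 with Nfic (Gm16104) and 4 with Nfia (E130114P18Rik). Since strand use in the counting is not given in the sources used here, reads in those bases could belong to either gene.

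A pair of start regions shows sequence at these loci: that of Nfic, the member tied to roots, and the RefSeq Nfix start whose window carries the letters of a BMP-Smad element. Both give the 250 bases before a RefSeq transcript start on GRCm38.p6, read 5′ to 3′ on the gene's strand, with capitals marking the element GGCGCC. Each window lies inside the gene, with 14 bases of annotated Nfic exon in the first and 0 exon bases in the second.
Nfic, chr10:81427174-81427423, minus strand: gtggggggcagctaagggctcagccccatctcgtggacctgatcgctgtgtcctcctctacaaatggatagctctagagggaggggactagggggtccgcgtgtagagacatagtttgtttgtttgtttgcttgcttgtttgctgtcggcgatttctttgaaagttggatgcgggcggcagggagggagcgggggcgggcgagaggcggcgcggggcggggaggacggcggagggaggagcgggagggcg
Nfix, chr8:84780083-84780332, minus strand: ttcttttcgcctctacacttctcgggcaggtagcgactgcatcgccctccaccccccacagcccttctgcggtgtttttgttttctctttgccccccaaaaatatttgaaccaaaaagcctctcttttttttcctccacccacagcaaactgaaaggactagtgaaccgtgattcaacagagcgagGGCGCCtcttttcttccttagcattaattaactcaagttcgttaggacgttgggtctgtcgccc
RefSeq windows were found for 3 of the 4 members (Nfia, Nfic and Nfix), 6 windows in all. The bases after the start were found in a GENCODE transcript of the gene for the Nfic window and for 1 of the 4 Nfix windows (chr8:84773411-84773660), which holds none of the letters searched. They were not found for the Nfix window printed above, nor for the Nfia window (chr4:97581693-97581942), which lies outside and upstream of the Nfia locus given above. On either strand, GGCGCC occurred in 1 Nfix window, 64 to 59 bases before the start, and in 9.59% of 32851 mouse windows of the same length. The complete NFI palindrome, TTGGC and its reverse complement GCCAA around a short spacer, occurred in no member's window and in 0.0365% of all windows, and 1 arm of it (TTGGC, which the palindrome also contains) in 2 Nfix windows and 41.5% of all windows. The hedgehog-response letters TGGGTGGTC were in no member's window and in 0.225% of all, and the palindromic Smad letters GTCTAGAC in none and in 0.167%. Bases of the Nfic window were 63.2% G or C, against a median of 52.4% over all windows. These matches describe letters, not binding.

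Nfic and Nfix were the abundant family members, and Nfib and Nfia the scarce ones. Compared per length, as RPM per kilobase of merged exon, Nfic stood at 28.0 ± 4.04 in controls and 25.7 ± 3.65 in mutants (mean ± SD, n = 3 libraries in each group, as for all means given). Nfix followed at 21.9 ± 1.91 and 23.6 ± 6.80, then Nfib at 1.86 ± 0.741 and 2.63 ± 0.766, and Nfia at 1.53 ± 0.597 and 2.18 ± 0.599 RPM per kilobase. Nfic was above Nfix in 5 of the 6 libraries and just below it in mutant 3 (29.9 against 30.8 RPM per kilobase), so these neighbours in the order overlapped. Nfib and Nfia also overlapped, with Nfia the higher in control 2 (1.09 against 1.06 RPM per kilobase). Between the pairs there was no overlap: the lowest Nfix library, at 17.3, lay far above the highest Nfib library, at 3.44 RPM per kilobase. With the longest principal transcript as the length, Nfic exceeded Nfix in every library, at 55.4 ± 8.0 against 29.4 ± 2.56 RPM per kilobase in controls. Among tested genes with a length, 90.4% stood below Nfic and 88.4% below Nfix, against 28.7% below Nfib and 24.3% below Nfia.

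No NFI gene passed the test between mutants and controls. Nfic and Nfix stayed within overlapping ranges with changes near 0, while Nfib and Nfia had higher means in mutants but spread widely among controls.

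Nfic, the root regulator, was at 209, 192 and 156 RPM in controls 1 to 3, in that order, and at 154, 160 and 198 RPM in mutants 1, 2 and 3. Controls 1 and 2 and mutant 3 were the high libraries, and the groups overlapped. Mutant minus control was -0.12 on the log2(RPM + 1) scale, on which all changes are given (SE 0.17, 95% interval -0.53 to 0.29, unadjusted p 0.517 and adjusted p 1.00, limma with Benjamini-Hochberg adjustment over 14444 genes). The interval still allows a change of that size in either direction. Within litter 1 both mutants were below both controls, a change of -0.35, and within litter 2 the mutant was above its control by 0.34. Leaving out each library in turn gave changes from -0.24 (without control 3) to -0.03 (without control 1).

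Nfix, the other abundant member, was at 175, 147 and 160 RPM in controls 1 to 3, in that order, and at 166, 127 and 226 RPM in mutants 1, 2 and 3. The mutants held both the lowest and the highest library, so their spread enclosed the controls. The change was 0.07 (SE 0.22, 95% interval -0.45 to 0.59, unadjusted p 0.762; adjusted p 1.00 by limma with Benjamini-Hochberg). It was -0.14 within litter 1 and 0.50 within litter 2, and -0.14 with mutant 3 left out, so its sign rested on that library.

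Nfib, which matures lung and brain cell types, was at 37.7, 15.9 and 29.9 RPM in controls 1 to 3, in that order, and at 38.1, 28.6 and 51.5 RPM in mutants 1, 2 and 3. Control 2 was the lowest library and mutant 3 the highest, a span of 3.24-fold, and controls 1 and 3 overlapped the mutants. The change of 0.53 (SE 0.34, 95% interval -0.27 to 1.33) did not pass (unadjusted p 0.162; adjusted p 1.00, limma with Benjamini-Hochberg adjustment). It was 0.41 within litter 1 and 0.76 within litter 2, and 0.19 with control 2 left out. With the replicate number as a block, a pairing that no label gives, its 95% interval was 0.07 to 0.99 (limma, unadjusted p 0.0310). In that fit 524 tested genes had an unadjusted p under 0.05 and 0 an adjusted one.

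Nfia, the gliogenic member, was at 24.1, 11.9 and 14.0 RPM in controls 1 to 3, in that order, and at 23.2, 17.5 and 30.5 RPM in mutants 1, 2 and 3. Controls 2 and 3 lay below all mutants, and control 1 lay among them. The change was 0.52 (SE 0.30, 95% interval -0.19 to 1.22, unadjusted p 0.129; adjusted p 1.00 by limma with Benjamini-Hochberg). It was 0.24 within litter 1 and 1.07 within litter 2, and 0.80 with control 1 left out (unadjusted p 0.0219; adjusted p 1.00, limma with Benjamini-Hochberg adjustment) against 0.32 with control 2 left out.

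**Figure D1:**
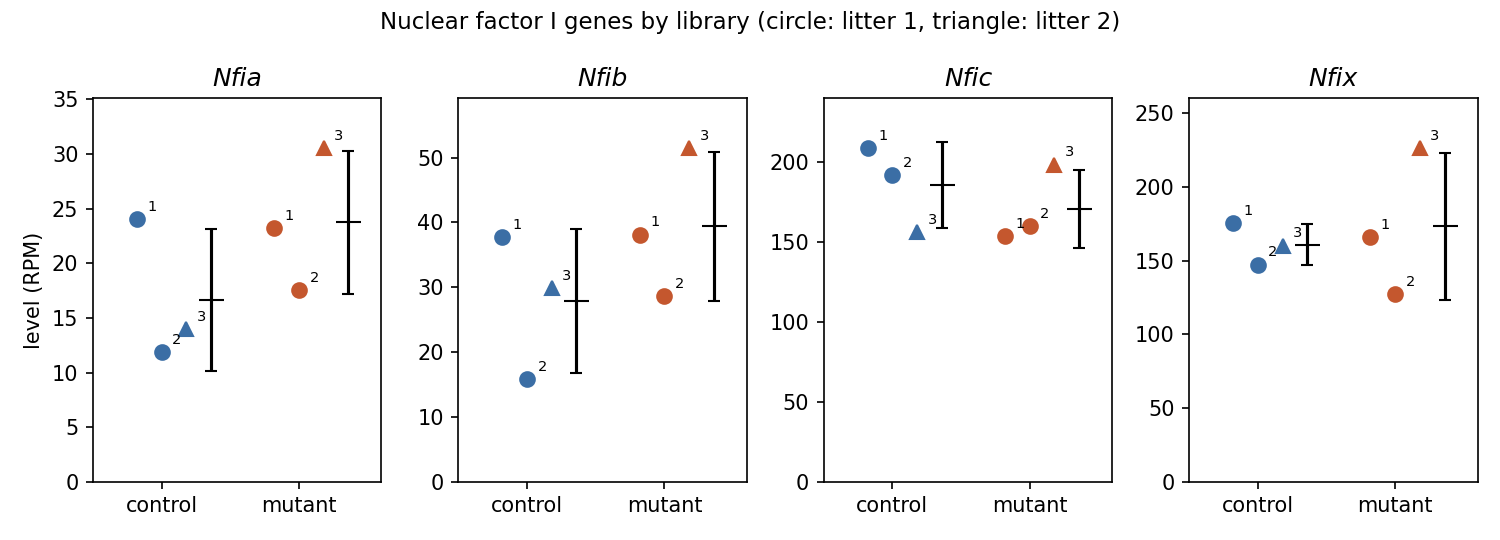
Level of each NFI gene in RPM (vertical axis, from 0, a different scale in each panel) in the control and mutant libraries, numbered by replicate, with bars for mean ± SD (n = 3). The groups overlap for all 4 genes, from 11.9 RPM for Nfia in control 2 to 226 RPM for Nfix in mutant 3.

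None of the 4 members had an adjusted p under 0.05, which 0% of the 14444 tested genes had (limma, Benjamini-Hochberg). None had an unadjusted p under 0.05, against 1.05% of tested genes (152 genes; 0.36% higher and 0.692% lower in mutants). The groups overlapped for all 4, while 2.64% of tested genes had groups that did not (0.976% higher and 1.67% lower in mutants). The absence of calls among the members is thus near the background. Counting error was small beside the spread between libraries, since the smallest count of any member was 340 reads, for Nfia in control 2. Nfib and Nfia varied more between libraries than the typical gene, with an SD of 0.55 and 0.49 log2 units over the 6 libraries against a median of 0.23 over tested genes. Nfix had an SD of 0.28 log2 units and Nfic 0.20.

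Litters were compared in a model that held both litter and genotype. Litter 2 minus litter 1 was 0.45 for Nfib (unadjusted p 0.223), 0.32 for Nfix (0.17), 0.16 for Nfia (0.644) and -0.01 for Nfic (0.965). By limma with Benjamini-Hochberg the adjusted p-values were 0.469, 0.412, 0.804 and 0.985, so 0 of 4 members were called against 0.872% of tested genes. The litters overlapped for all 4 members, while they did not for 35.5% of tested genes. Litter 2 holds 1 library per genotype, and litter cannot be told apart from whatever else the litters did not share. The Nfic sign was positive, at 0.04 and 0.03, with median-of-ratios and upper-quartile scaling. With each library left out in turn, the litter difference ran from 0.22 to 0.73 for Nfib and from -0.0039 to 0.64 for Nfix. It ran from -0.26 to 0.57 for Nfia and from -0.35 to 0.34 for Nfic.

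Nfia and Nfib were close to each other in how they varied between libraries. Likeness was measured as the root mean square distance between log2(RPM + 1) profiles over the 6 libraries, each centred on its own mean, among genes averaging 10 RPM or more. Nfia and Nfib were 0.192 log2 units apart, and of 9977 genes compared only 21 were nearer to Nfia and 13 nearer to Nfib. Nfix was 0.315 from Nfia and 0.370 from Nfib, with 2.01% of genes nearer to Nfia and 3.47% nearer to Nfib. Seen from Nfix the same distances were ordinary, with 52.3% and 68.2% of genes nearer. Nfic was 0.428 from Nfia and 0.522 from Nfib, with 21.1% and 42.3% of genes nearer, and 0.223 from Nfix, which is the median distance of all genes from Nfic. From the Nfix side 12.1% of genes were nearer than Nfic, which made Nfic the member nearest to Nfix. The points share their 6 libraries, so these distances are a description and no test.

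Outside the family, the profiles most like that of Nfia were those of Mcam (an adhesion molecule of vessel walls and perivascular cells, distance 0.0783), Jun (an AP-1 subunit, 0.0854) and Lass4 (a ceramide synthase, 0.0967). Those nearest to Nfib were Pfn2 (an actin-binding profilin, 0.0777), Trp53i11 (0.0900) and Limk2 (a kinase of the cofilin pathway, 0.113). The genes nearest to Nfic were Zfp827 (0.0355), Msl2 (a ubiquitin ligase of a histone acetylation complex, 0.0367) and Riok1 (a kinase of ribosome maturation, 0.0385). Nfix had Cand1 (a regulator of cullin ligases, 0.0854), Lamc1 (the laminin gamma 1 chain, 0.0912) and Hn1l (0.0915) closest.

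Epithelial markers shared their lowest and highest libraries with Nfib and Nfia, but not the whole order. Their summed level was 1818, 244 and 3181 RPM in controls 1, 2 and 3 and 2954, 1226 and 4697 RPM in mutants 1, 2 and 3. Control 2 was lowest and mutant 3 highest in these markers, as for Nfib, and mutant 2 was second lowest in both. Control 3 departed from this: it was above the 6-library mean in the markers (behind mutant 3 by summed RPM, behind mutants 1 and 3 by mean log2 level) but second lowest for Nfia (14.0 RPM), and below the mean of the 6 libraries for Nfib (-0.08 log2 units). All 5 markers had a positive mutant minus control difference, from 0.78 to 1.56 with a median of 1.23, and 0 of 5 had an unadjusted p under 0.05, against 0.36% of tested genes higher in mutants at that level. With the mean log2 level of the 5 markers as a covariate, an alternative chosen after seeing the data, the Nfib change was 0.11 (95% interval -0.35 to 0.57, unadjusted p 0.586). The Nfia change was then 0.26 (unadjusted p 0.369), that of Nfix -0.09 and that of Nfic -0.11, and every adjusted p was 1.00 (limma, Benjamini-Hochberg).

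**Figure D2:**
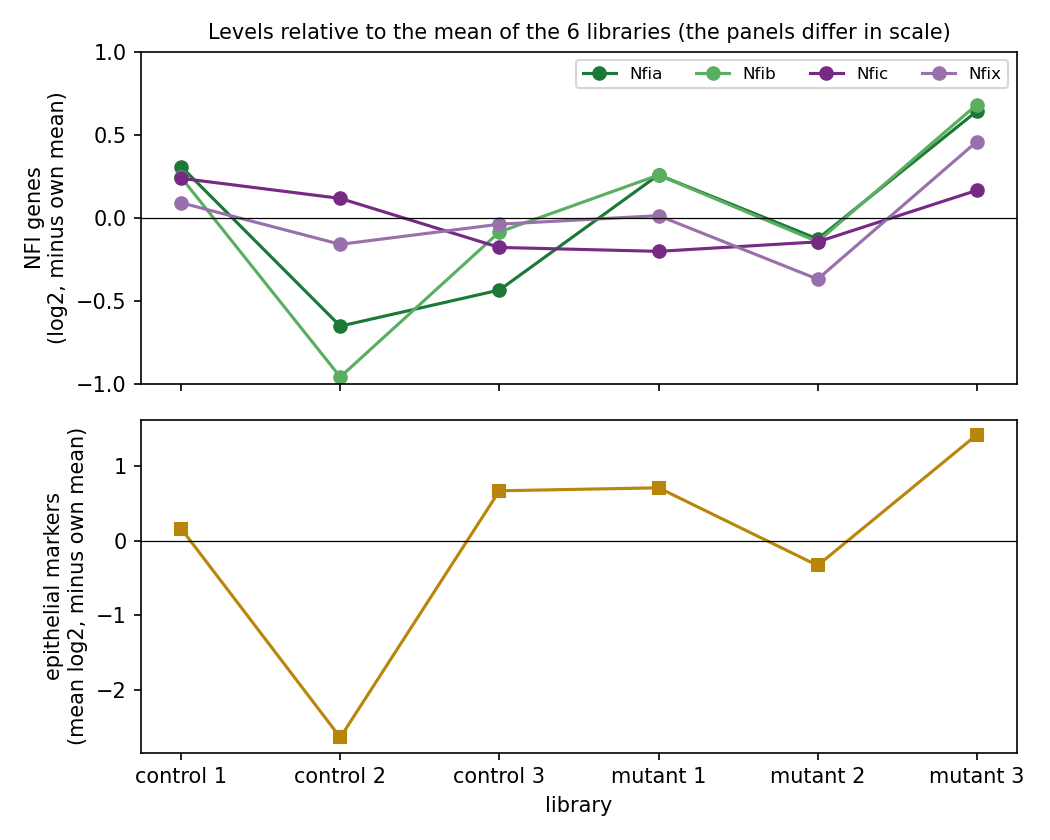
Upper panel, log2(RPM + 1) of each NFI gene minus its mean over the 6 libraries; lower panel, mean log2(RPM + 1) of the 5 dental epithelium markers minus its mean, on a wider scale (lines join libraries only to guide the eye). Nfia, Nfib and the epithelial markers are lowest in control 2 (-0.65, -0.96 and -2.64) and highest in mutant 3 (0.64, 0.68 and 1.42).

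Ratios between members within a library do not depend on how libraries are scaled. They were computed after the levels had been seen. The ratio of Nfib to Nfix RPM was 0.215, 0.108 and 0.186 in controls 1, 2 and 3 and 0.230, 0.225 and 0.227 in mutants 1, 2 and 3. All mutants lay above all controls, with the closest libraries 0.215 and 0.225. This was the only 1 of the 6 ratios without overlap, and the ratio to Nfix did not overlap for 1.68% of the other 14443 tested genes (4% for ratios to Nfia, 3.88% to Nfib and 3.21% to Nfic). The epithelial markers given above were also lowest in control 2, the library with the lowest ratio, and their part in the ratio was not tested.

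The ratio of Nfia to Nfix was 0.137, 0.0807 and 0.0873 in controls and 0.140, 0.138 and 0.135 in mutants, so control 1 fell among the mutants. The mutant ratios lay close together, 0.137 ± 0.00241 for Nfia and 0.227 ± 0.00224 for Nfib, against 0.102 ± 0.0309 and 0.170 ± 0.0557 in controls. The ratio of Nfic to Nfix was 1.19, 1.30 and 0.975 in controls and 0.926, 1.26 and 0.876 in mutants. Nfic reads made up between 39.1% (95% Wilson interval 38.3% to 40.0%, mutant 3) and 52.3% (51.3% to 53.2%, control 2) of all NFI reads. The control and mutant shares of Nfic, 47.5 ± 4.50% and 42.5 ± 4.79%, overlapped, and longer members take more reads per transcript. Such intervals hold counting error alone, as no molecular identifiers mark copies of a molecule.

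**Figure D3:**
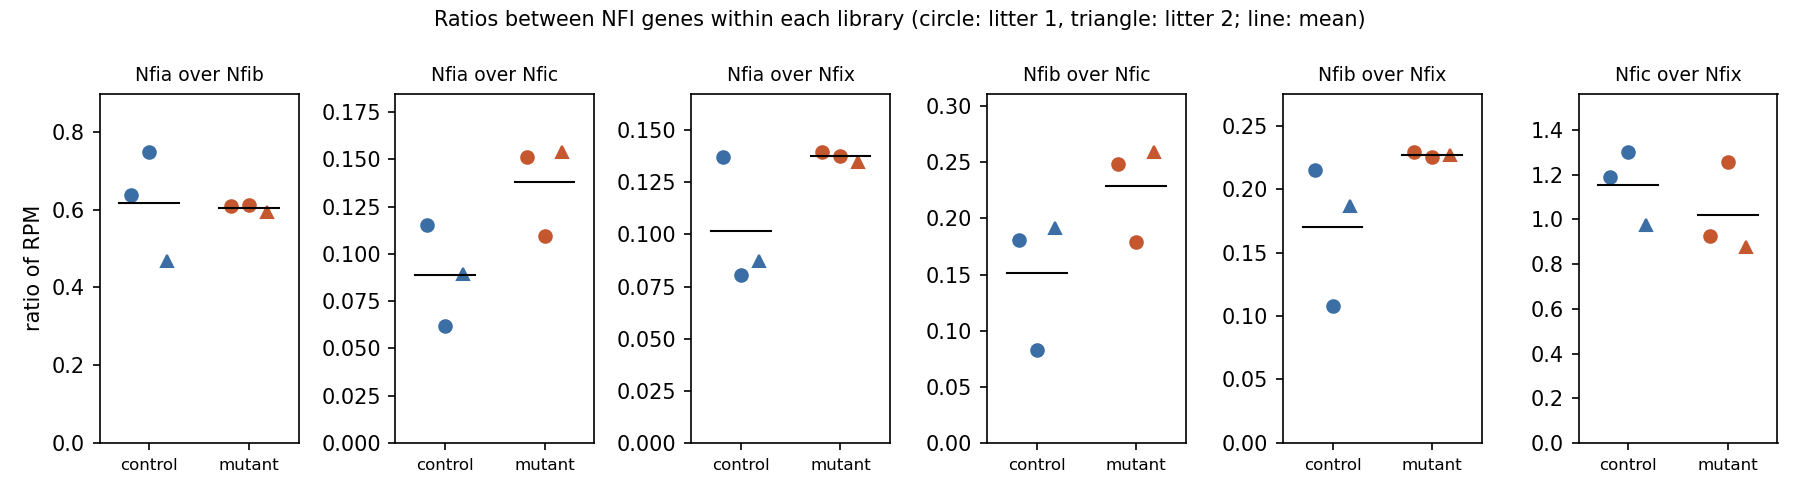
The 6 ratios of RPM between NFI genes in each library (vertical axes from 0, a different scale in each panel), with lines at the group means. The ratio of Nfib to Nfix is 0.108 to 0.215 in controls and 0.225 to 0.230 in mutants; the groups overlap in the other panels.

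The receptor and the hedgehog genes placed around Nfic in root formation were examined next. Bmpr1a, the floxed receptor gene, was at 121, 139 and 150 RPM in controls against 108, 120 and 111 RPM in mutants, a small difference without overlap (change -0.27, SE 0.14, unadjusted p 0.0910). A count over the whole gene cannot show the floxed exons alone, so it checks the deletion only in part. Gli1, a hedgehog target and the locus of the driver, was at 34.9, 30.4 and 63.7 RPM in controls against 28.7, 19.8 and 26.6 RPM in mutants (change -0.70, SE 0.29, unadjusted p 0.0460). Without control 3 it was -0.38 (unadjusted p 0.0988), and the unadjusted p was under 0.05 in 8 of 19 alternatives. The Gli1 groups did not overlap, as for 1.67% of tested genes lower in mutants. Mutants carry an altered Gli1 allele, so the allele and the loss of Bmpr1a cannot be told apart here. Hhip, which encodes a hedgehog-binding inhibitor and has been described as an Nfic target, was at 23.1, 11.1 and 35.6 RPM in controls against 8.21, 11.2 and 16.3 RPM in mutants. Controls 1 and 3 were above all mutants and control 2 was among them (change -0.82, SE 0.42, 95% interval -1.81 to 0.17, unadjusted p 0.0924). The Hhip change was -0.45 without control 3 (unadjusted p 0.275), -1.25 without control 2 (unadjusted p 0.00532) and -1.30 with epithelial markers as a covariate (unadjusted p 0.00164), with adjusted p 1.00 in each by limma with Benjamini-Hochberg. For Hhip the unadjusted p was under 0.05 in 4 of 19 alternatives. The covariate was chosen after seeing the data, and with it 401 tested genes had an unadjusted p under 0.05, against 152 without it.

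Of 13 listed hedgehog genes, 12 were tested, 0 passed adjustment by limma with Benjamini-Hochberg and 1 (Gli1) had an unadjusted p under 0.05, against 0.692% of tested genes lower in mutants at that level. The list's median change was -0.04, against -0.01 over all tested genes. Gli3, a hedgehog effector that can act as a repressor, was at 69.3, 71.0 and 84.4 RPM in controls against 46.1, 48.9 and 72.0 RPM in mutants (change -0.44, unadjusted p 0.0561). The ligand Shh was at 10.4 RPM in control 2 and between 56.2 and 86.8 RPM elsewhere, so control 2, the library poorest in epithelial markers, was also the lowest here. The receptor gene Smo overlapped between groups, at 199 to 216 RPM in controls and 175 to 241 RPM in mutants.

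Genes of the TGF-beta and BMP arm, which includes the Smad and Smurf genes tied to NFI-C turnover, had a median change of -0.06. All 9 were tested, 0 passed adjustment by limma with Benjamini-Hochberg, and 0 had an unadjusted p under 0.05. Smad4, the shared partner of receptor Smads, was at 83.6, 75.5 and 68.1 RPM in controls against 66.6, 73.6 and 77.9 RPM in mutants, with overlap. Tgfbr2, a TGF-beta receptor, was at 141 to 170 RPM in controls and 171 to 195 RPM in mutants, and its groups did not overlap (change 0.18, unadjusted p 0.253). With Bmpr1a it was one of 2 such genes among the 9, against 2.64% of tested genes.

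The list of odontoblast and bone genes is a general one, of which Klf4 and Sp7 were tied to Nfic above. Its median change was -0.53, and all 12 tested had a negative one, as did 54.4% of all tested genes. By limma with Benjamini-Hochberg 0 passed adjustment, and 1 (Ibsp) had an unadjusted p under 0.05, against 0.692% of tested genes lower in mutants at that level. Klf4, a regulator of odontoblast differentiation, was at 53.6, 52.4 and 137 RPM in controls against 30.9, 41.2 and 47.5 RPM in mutants. Its groups did not overlap, with control 3 far above the other controls (change -0.87, SE 0.38, unadjusted p 0.0532). In the list, 2 of 12 genes (Klf4 and Ibsp) were lower in mutants without overlap, against 1.67% of tested genes. Sp7, which encodes osterix, was at 77.8, 126 and 109 RPM in controls against 72.5, 91.3 and 62.9 RPM in mutants, with control 1 among the mutants (change -0.45, unadjusted p 0.0818, but -0.30 without control 2 and -0.25 with the epithelial covariate). Ibsp, a bone matrix sialoprotein gene, was at 35.5, 65.9 and 154 RPM in controls against 29.9, 23.6 and 25.7 RPM in mutants (change -1.41, SE 0.47, unadjusted p 0.0195). Smpd3, a sphingomyelinase needed for mineralisation, was at 155 to 458 RPM in controls and 64.7 to 168 RPM in mutants (change -1.07, unadjusted p 0.0625). Control 3 was the highest library for Klf4, Ibsp and Smpd3, and without it their changes were -0.42, -0.86 and -0.59. Leaving out mutant 1 gave -0.68 for Smpd3. Control 3 also stood apart in markers of blood cells: 5 erythroid markers summed to 1420 RPM there against 136 to 432 RPM in the other libraries, and 4 macrophage markers to 79.7 RPM against 122 to 267 RPM. Their part in these changes was not tested.

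With litter as a block, the unadjusted p was under 0.05 also for Klf4 (0.00677), Smpd3 (0.00709), Gli3 (0.00892) and Hhip (0.0258), with every adjusted p 1.00 (limma, Benjamini-Hochberg). In that fit 292 of the 14444 tested genes had an unadjusted p under 0.05, against 152 without the block. Smpd3 and Gli3 were named here for a low unadjusted p with the replicate number as a block. Replicate numbers lie within litters, so the litter-block values of these genes are no separate result. The 4 NFI genes stayed above 0.05 with litter as a block, from 0.137 for Nfia and Nfib to 0.729 for Nfix.

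The differences in odontoblast and bone genes were mostly larger in litter 2. The median change of the odontoblast and bone list was -0.07 within litter 1 and -1.54 within litter 2. Dspp, the dentin matrix gene, was at 4032, 4844 and 817 RPM in controls against 6872, 4642 and 113 RPM in mutants, so both litter 2 libraries lay below all of litter 1. Its change of -0.71 (SE 1.56, unadjusted p 0.663) was 0.35 in litter 1 alone and 1.17 without mutant 3. Markers of osteoblasts, 6 of 6 detected, summed to 712 to 1409 RPM in controls, to 1607 and 1242 RPM in mutants 1 and 2, and to 151 RPM in mutant 3. All 5 of these markers that were tested had a negative change, with a median of -0.87 and the lowest, -3.05, for Spp1. Their median was -0.07 within litter 1 and -2.54 within litter 2. By limma 2 of the 5 had an unadjusted p under 0.05, against 0.692% of tested genes lower in mutants at that level. Of the 6 markers, 4 (Ibsp, Bglap, Phex and Dmp1) are also in the odontoblast and bone list, so neither the sum nor these changes are a separate measure.

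Other regulators of root mesenchyme had a median change of -0.09 over 14 tested genes, 6 positive and 8 negative. By limma with Benjamini-Hochberg 0 passed adjustment and 1 had an unadjusted p under 0.05, against 0.692% of tested genes lower at that level. This was Lhx8, a LIM homeobox gene of dental mesenchyme, at 19.3, 19.5 and 22.6 RPM in controls and 13.4, 14.6 and 16.0 RPM in mutants, without overlap, as for 1.67% of tested genes lower in mutants (change -0.46, SE 0.15, unadjusted p 0.0180). Pth1r, the receptor for parathyroid hormone-related protein, was at 54.9 to 67.9 RPM in controls and 38.3 to 56.3 RPM in mutants (change -0.35, unadjusted p 0.0945). Without mutant 1 its change was -0.18.

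**Figure D4:**
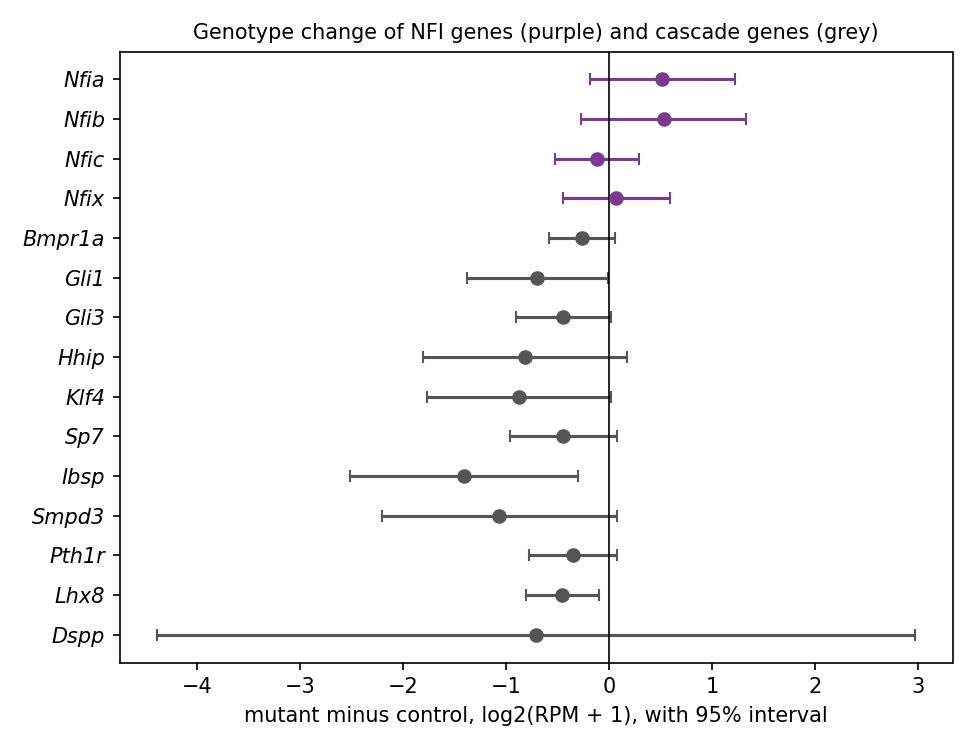
Mutant minus control change on the log2(RPM + 1) scale with its 95% interval for the NFI genes (purple) and named genes of the surrounding pathways (grey), from limma. All 4 NFI intervals include 0, from -0.53 to 0.29 for Nfic; those of Gli1, Ibsp and Lhx8 do not, before adjustment.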

How the data were processed

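Reads had been aligned with TopHat2 to mm10, per the submitters' processing notes; the counting program, strand setting and annotation are not given in the sources used here. The authors deposited 1 table of log2 values named as RPKM, with no pooled columns. Raised as powers of 2, 99.99% of values above a column's minimum were whole multiples (within 0.1) of 1 step shared by all genes, so values were not per gene length. A column's lowest value, 0.9 of 1 step, was taken as no reads. The values were treated as log2 RPM. The step gave 15916045 to 20609420 reads per library, and 3 reads equal 0.0987 to 0.126 RPM. No 2 libraries were the same library: chi-square per degree of freedom between any pair was at least 24.9.

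Genes averaging 1 RPM or more (14444) were fitted on log2(RPM + 1), which understates changes of low genes, with limma 3.58.1 in R 4.3.3 (trended eBayes, genotype only, two-sided, Benjamini-Hochberg over all tested genes). Count models were limited to limma voom, as an alternative. Lengths came from GENCODE M21 (89.8% of tested genes matched by symbol) and promoters from RefSeq. One listed epithelial marker is not reported here and was left out of that list. Members and lists were chosen with earlier results of these data known. Named were the members, Bmpr1a, Gli1, Hhip, Klf4, Sp7, Dspp, genes of the 4 pathway lists (not the cell type markers) with an unadjusted p under 0.05 without or with the replicate number as a block, and the 3 nearest profiles per member; the other listed genes given with values (Shh, Smo, Smad4 and Tgfbr2) were chosen after their values were seen. Alternatives covered the pseudocount, filter, scaling, moderation, litter, replicate block, an epithelial covariate and leaving out each library.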

Additional observations from a re-analysis of the deposited data

Results flagged for a closer look

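The change of Nfic differed in sign between litters. It was -0.35 in litter 1, where both mutants (154 and 160 RPM) lay below both controls (209 and 192 RPM), and 0.34 in litter 2, where the mutant (198 RPM) lay above its control (156 RPM). The litter-by-genotype term was 0.69 log2 units, with an unadjusted p of 0.0468 and an adjusted p of 0.910 (limma, Benjamini-Hochberg). Litters moved in opposite directions in this way for 18.2% of the 14444 tested genes. Litter 2 holds 1 library per genotype.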

How the results depend on the processing

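Only the epithelial covariate was chosen after seeing the data among the 19 alternatives for the genotype change. In none of them did a member pass adjustment (limma, Benjamini-Hochberg, 0.05). Nfia (0.24 to 0.80), Nfib (0.11 to 0.78) and Nfic (-0.35 to -0.03) kept their signs in all 19, while Nfix changed sign to -0.14 in litter 1 alone, -0.14 without mutant 3 and -0.092 with the epithelial covariate. Leaving out each library in turn gave 0.32 to 0.80 for Nfia, 0.19 to 0.78 for Nfib, -0.24 to -0.03 for Nfic and -0.14 to 0.27 for Nfix. The litter difference of Nfic changed sign to 0.039 with median-of-ratios and 0.031 with upper-quartile scaling and ran from -0.35 to 0.34 with libraries left out, that of Nfia from -0.26 to 0.57, that of Nfib from 0.22 to 0.73 (unadjusted p 0.00758 without control 1) and that of Nfix from -0.0039 to 0.64 (unadjusted p 0.0424 without control 3). Dspp changed sign to 0.35 in litter 1 alone and 0.47 with the covariate, and ran from -1.79 to 1.17 with libraries left out. The 152 genes at an unadjusted p under 0.05 became 344 without a filter, 401 with the covariate, 316 in litter 1 alone, 292 when litter was a block, and 68 (without mutant 1) to 319 (without control 1) with libraries left out. The number passing adjustment was 0 to 1 with libraries left out (Spp1 without control 1, adjusted p 0.0332 by limma with Benjamini-Hochberg) and 0 otherwise. The cause of these shifts was not tested.

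The replicate numbers in the column names do not pair the libraries by any label, and over genes, the correlation of same-numbered libraries after removing group means was -0.03, 0.75 and 0.50. Mutant 1 correlated best with control 3 (0.09), so not every library matched its own number best. With the replicate block 524 genes had an unadjusted p under 0.05 and 0 an adjusted one (limma, Benjamini-Hochberg). In that fit the unadjusted p was 0.0310 for Nfib, 0.0620 for Nfia, 0.545 for Nfic and 0.707 for Nfix, and it was under 0.05 for 4 of the 5 epithelial markers. Depth limits these genes little, as 1 read was worth at most 0.0419 RPM.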
